A study of Mus musculus with 24 samples.

Results

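The DNA methyltransferases, the TET enzymes and 3 of their cofactors were examined in the RNA-seq data of *Zfp57* mutant mouse embryos. The members were 10 genes chosen by symbol, *Dnmt1*, *Uhrf1*, *Dnmt3a*, *Dnmt3b*, *Dnmt3l*, *Tet1*, *Tet2*, *Tet3*, *Tdg* and *Dppa3*, out of 34745 genes in the count table. RNA-seq was performed to look for target genes of ZFP57, a KRAB zinc finger protein that maintains DNA methylation at imprinting control regions. The libraries came from 6 embryos labelled *Zfp57*-/+ (M-Z+) and 6 embryos labelled *Zfp57*-/- (M-Z-), all 129/DBA hybrid total embryos at embryonic day 13.5. By these labels, embryos of both groups had no maternal *Zfp57*, and M-Z- embryos had no zygotic *Zfp57* either. The labels give neither sex, litter nor batch, and p-values measure the spread between these samples. Total counts on genes were 12347383 to 19216288 in M-Z+ libraries, with a median of 14142528, and 12005145 to 14617373 in M-Z- libraries, with a median of 13356726. No 2 libraries of a group were as close as repeated counts of 1 library would be.

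DNMT3A and DNMT3B place new methyl groups on cytosines of CpG sites, and DNMT1 copies the pattern onto the new strand after replication. TET enzymes oxidise 5-methylcytosine, and base excision repair can then put back an unmodified cytosine. In embryos after implantation, the imprints at imprinting control regions persist through many cell divisions by maintenance methylation.

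Reads on *Zfp57* itself (chr17:37001163-37010635, GRCm38) were counted in all 12 embryos. Counts were 291 to 757 in M-Z+ embryos, with a median of 300.5, and 214 to 384 in M-Z- embryos, with a median of 366.5. The ranges overlapped, and the highest counts, 757 and 638, were in M-Z+ embryos 4 and 6. In M-Z- over M-Z+ embryos the difference was −0.15 on the log2 scale (95% interval −0.54 to 0.24, edgeR quasi-likelihood test with Benjamini-Hochberg adjustment, adjusted p = 0.828). Since reads over the whole gene were summed and the sources used here do not say which part was deleted, these counts do not check the genotype labels.

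None of the 10 genes passed the test between genotypes. A gene was called at an adjusted p below 0.05 with a log2 fold change beyond 0.5 in edgeR, and 13 of 16026 tested genes were called, 0.0811%. The filter on low counts kept 8 members and left out *Dnmt3l* and *Dppa3*. DESeq2 also called 0 of the 8, where it called 37 of 16021 genes, 0.231%. At an unadjusted p below 0.05, 1 member of 8 passed, *Dnmt3a*, which was higher in M-Z- embryos, where 6.7% of tested genes passed in either direction and 3.44% were higher in M-Z- embryos. None of the 8 had groups of embryos without overlap in CPM (counts scaled to a common library size after TMM normalisation), where 0.574% of tested genes had. The log2 fold change was above 0 for 6 of the 8 members, with a median of 0.12, and for 48.3% of all tested genes, with a median of −0.01. The samples were whole embryos, in which fewer cells of a type and less RNA per cell cannot be told apart.

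Levels of different genes were compared as TPM, for which counts are divided by gene length and scaled to the same sum in each library. The deposited FPKM values imply gene lengths that exceed the span of the locus for 954 of the 16026 tested genes, so that TPM was also computed with the exon length of each gene in GENCODE vM1. *Dnmt1* was the most abundant member with 201.1 ± 22.9 TPM (SD, n = 12 embryos), and *Uhrf1* followed with 142 ± 9.26 TPM. *Dnmt3a* with 45.0 ± 8.12 TPM and *Tet3* with 41.2 ± 9.26 TPM came next. *Tdg*, *Dnmt3b*, *Tet1* and *Tet2* had means of 8.01, 6.88, 6.37 and 5.92 TPM. *Dnmt1* was above *Uhrf1* and *Uhrf1* above *Dnmt3a* in all 12 embryos, and *Dnmt3a* was above *Tet3* in 11. The lower 4 overlapped in their ranges and held no fixed order, since *Tdg* was above *Dnmt3b* in 7 of 12 embryos, *Dnmt3b* above *Tet1* in 7 and *Tet1* above *Tet2* in 8. With GENCODE lengths the first 4 kept their order, while *Tet2* became the fifth with 15.6 ± 8.22 TPM, ahead of *Tdg* with 11.8 ± 3.80 TPM, *Tet1* with 10.1 ± 4.12 TPM and *Dnmt3b* with 9.80 ± 1.32 TPM. This order did not hold in each embryo either, since *Tet2* was above *Tdg* in 6 of 12 embryos, *Tdg* above *Tet1* in 8 and *Tet1* above *Dnmt3b* in 6. *Dppa3* and *Dnmt3l* were the last 2 on both scales, with 1.93 ± 1.78 and 0.0645 ± 0.0910 TPM on the FPKM lengths.

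**Figure D1:**
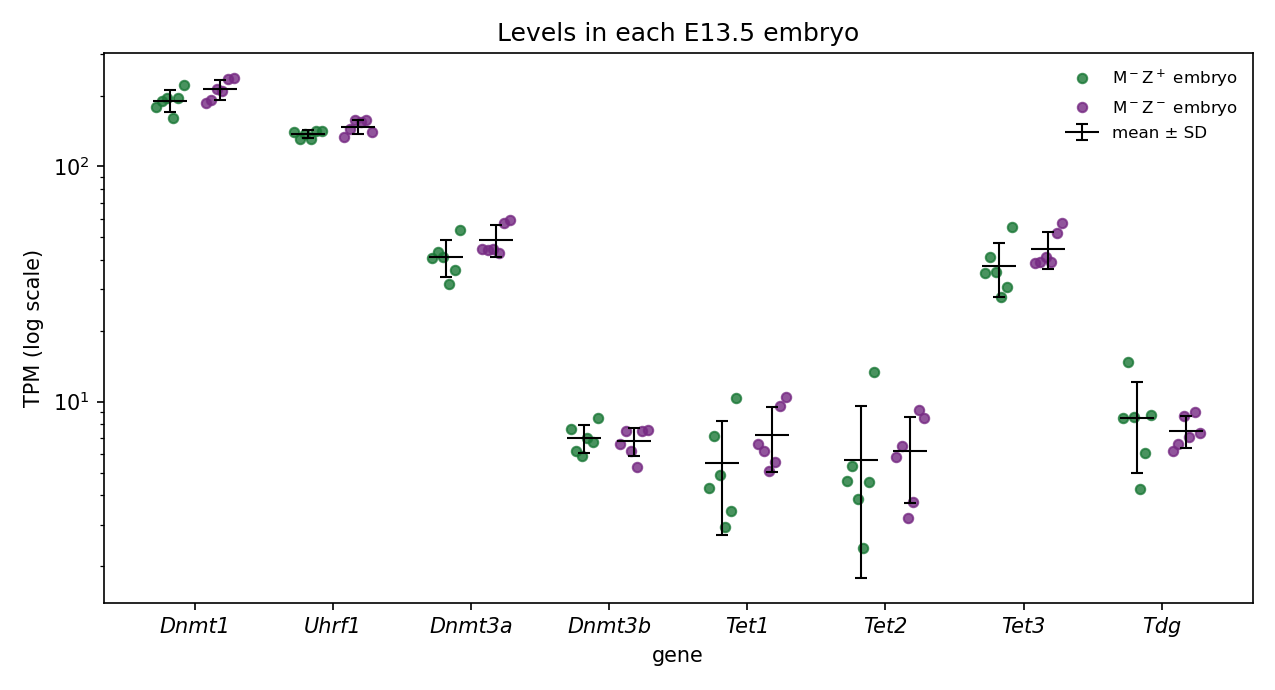
TPM (log axis) of the 8 members that passed the filter on low counts, with 1 point per embryo, M-Z+ on the left and M-Z- on the right of each gene, and black marks for mean ± SD over 6 embryos. *Dnmt1* and *Uhrf1* lie above 130 TPM in every embryo, *Dnmt3a* and *Tet3* between 27.9 and 59.2 TPM, and the other 4 genes below 15 TPM with overlapping ranges.

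*Dnmt1* (chr9:20907206-20959888), the maintenance methyltransferase, had 4028 to 7171 counts per library. Its level was 316 to 374 CPM in M-Z+ embryos, with a median of 343, and 335 to 403 CPM in M-Z- embryos, with a median of 386. The 4 highest embryos were all M-Z-, replicates 3 to 6, but M-Z- embryos 1 and 2 lay within the M-Z+ range. On the log2 scale M-Z- embryos differed by 0.13 ± 0.07 (SE, 95% interval −0.02 to 0.28, edgeR adjusted p = 0.749), and the exact two-sided permutation test of mean CPM over all 924 divisions of the embryos gave p = 0.0736.

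*Uhrf1* (chr17:56303321-56323486) encodes the protein that reads hemimethylated CpG sites and brings DNMT1 to them. Its level was 191 to 223 CPM in M-Z+ embryos, with a median of 210.2, and 197 to 237 CPM in M-Z- embryos, with a median of 220.4. The groups overlapped, and 3 M-Z- embryos were above every M-Z+ embryo. This gave a log2 fold change of 0.07 ± 0.07 (SE, 95% interval −0.08 to 0.22, edgeR adjusted p = 0.787). The 2 maintenance genes varied little between embryos of a group. The SD of log2 CPM after group means were taken off was 0.10 for both *Dnmt1* and *Uhrf1*, and 7.74% and 7.41% of tested genes had a smaller SD. Both are abundant, with 98.0% and 96.9% of all genes below them in mean TPM, and their SD was not compared with that of genes of like abundance.

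*Dnmt3a* (chr12:3806007-3914443), a de novo methyltransferase, had 284 to 412 CPM in M-Z+ embryos, with a median of 344, and 362 to 461 CPM in M-Z- embryos, with a median of 369. M-Z- embryos 5 and 6 were the highest of all 12 and M-Z+ embryo 4 was the lowest, while M-Z+ embryo 6 lay above the other 4 M-Z- embryos. Its log2 fold change was 0.22 ± 0.10 (SE, 95% interval 0.01 to 0.43, edgeR unadjusted p = 0.0452, adjusted p = 0.745). The exact permutation test of mean CPM gave p = 0.0693. Leaving out 1 embryo at a time, the unadjusted p was below 0.05 in 5 of 12 fits.

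*Dnmt3b* (chr2:153649450-153687730), the other catalytic de novo methyltransferase, had 180 to 386 counts per library. Its level was 15.0 to 20.1 CPM in M-Z+ embryos, with a median of 18.7, and 13.7 to 19.1 CPM in M-Z- embryos, with a median of 17.4. The groups overlapped, with 3 M-Z+ embryos above every M-Z- embryo and M-Z- embryo 4 below every M-Z+ embryo. A log2 fold change of −0.08 ± 0.11 was estimated (SE, 95% interval −0.32 to 0.15, edgeR adjusted p = 0.838).

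*Dnmt3l* (chr10:78041947-78063622), a cofactor of the de novo enzymes without catalytic activity, had 0 counts in 7 of 12 libraries and at most 5 in the others. The sums were 8 counts over M-Z+ embryos and 7 over M-Z- embryos. Per total count, M-Z+ embryos had 1.00 times the counts of M-Z- embryos (95% exact interval 0.318 to 3.25, which covers counting error only). How large a difference could be detected at this depth was not tested. The gene overlaps *Aire*, which had 0 to 9 counts, and reads of the 2 genes could have been divided between them.

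The shares of each family held by 1 member were compared in TPM. *Dnmt1* made up 79.8 ± 1.40% of the summed TPM of *Dnmt1*, *Dnmt3a*, *Dnmt3b* and *Dnmt3l* in M-Z+ embryos (SD, n = 6) and 79.3 ± 1.38% in M-Z- embryos (exact two-sided permutation test, p = 0.461). *Dnmt3a* made up 85.3 ± 2.23% of the *Dnmt3a* and *Dnmt3b* TPM in M-Z+ embryos and 87.8 ± 1.28% in M-Z- embryos, a difference of 2.46 percentage points (exact permutation test, n = 6, p = 0.0411, 0.123 adjusted over the 3 shares tested). The ranges of 81.8 to 87.5% and 85.6 to 89.0% overlapped. This difference did not pass the adjusted test, and without M-Z+ embryo 6 and M-Z- embryos 5 and 6, whose libraries had the steepest gene length slope, it was 2.27 points (exact permutation test, p = 0.159). *Tet3* made up 78.4 ± 4.71% of the *Tet* TPM in M-Z+ embryos and 77.3 ± 3.82% in M-Z- embryos (exact permutation test, n = 6, p = 0.675). The level of 2 of these shares depended on the lengths used. With GENCODE lengths *Dnmt1* made up 73.2 ± 1.71% in M-Z+ and 72.5 ± 1.68% in M-Z- embryos (exact permutation test, n = 6, p = 0.463), and *Tet3* 70.6 ± 6.03% and 69.8 ± 5.09% (exact permutation test, n = 6, p = 0.797). The *Dnmt3a* share was 85.2 ± 2.24% and 87.7 ± 1.29% on these lengths (exact permutation test, n = 6, p = 0.0411).

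*Tet3* (chr6:83362373-83459084) was the most abundant of the 3 dioxygenases that oxidise 5-methylcytosine. Its level was 164 to 277 CPM in M-Z+ embryos, with a median of 194, and 209 to 292 CPM in M-Z- embryos, with a median of 220.4. M-Z- embryos 6 and 5 and M-Z+ embryo 6 were the 3 highest, and M-Z+ embryo 4 was the lowest. Its log2 fold change was 0.22 ± 0.13 (SE, 95% interval −0.06 to 0.49, edgeR adjusted p = 0.749), and 0.32 without M-Z+ embryo 6 (0.10 to 0.55, edgeR unadjusted p = 0.00871, adjusted p = 0.263) against 0.14 without M-Z- embryo 6.

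*Tet1* (chr10:62804570-62899118) had 26.1 to 78.7 CPM in M-Z+ embryos, with a median of 38.2, and 42.0 to 80.9 CPM in M-Z- embryos, with a median of 52.2. The same 3 embryos were the highest, and M-Z+ embryos 4 and 5 were the lowest. The log2 fold change of 0.38 was the largest among the 8 members, and its 95% interval of −0.17 to 0.93 reached past the fold limit (edgeR adjusted p = 0.753). Without M-Z+ embryo 6 it was 0.62 (0.16 to 1.08, edgeR unadjusted p = 0.0125, adjusted p = 0.267), and without M-Z- embryo 6 it was 0.25.

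*Tet2* (chr3:133463679-133545139) had 22.0 to 105.2 CPM in M-Z+ embryos, with a median of 40.4, and 27.3 to 74.4 CPM in M-Z- embryos, with a median of 52.1. M-Z+ embryo 6 was both the highest of all and far from the other M-Z+ embryos, which did not exceed 43.7 CPM. For *Tet2* the log2 fold change was 0.11 (95% interval −0.62 to 0.84, edgeR adjusted p = 0.934), and it turned to −0.23 once the gene length slope was a covariate. Without M-Z+ embryo 6 the log2 fold change was 0.51 (−0.04 to 1.05, edgeR adjusted p = 0.331). The within-group SD of log2 CPM was 0.66 for *Tet2* and 0.50 for *Tet1*, and 94.4% and 87.2% of tested genes had a smaller SD. *Tet3* had an SD of 0.24, close to the median of 0.23 over all tested genes.

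*Tdg* (chr10:82629828-82650799) encodes the glycosylase that cuts out oxidised forms of 5-methylcytosine. It had 12.9 to 39.9 CPM in M-Z+ embryos, with a median of 23.5, and 17.0 to 24.5 CPM in M-Z- embryos, with a median of 19.7. The highest and the lowest level were both in M-Z+ embryos, replicates 2 and 4, and all M-Z- embryos lay between them. The log2 fold change was −0.20 (95% interval −0.66 to 0.26, edgeR adjusted p = 0.801), and without M-Z+ embryo 2 it was 0.00. The pseudogene *Tdg-ps* had 303 to 484 counts per library, beside 205 to 518 for *Tdg*, so the split of reads between them is uncertain. The summed level of both was 48.8 ± 11.4 CPM (SD) in the M-Z+ group against 46.3 ± 2.60 CPM in the M-Z- group (n = 6 each, exact permutation test, p = 0.654). *Glt8d2*, which overlaps *Tdg*, had 108 to 172 counts. Other genes that overlap members, *Dnmt3aos*, *Dnmt3bos*, *Gm42567* (*Tet2*), *B230319C09Rik* and *RP23-331I23.5* (both *Tet3*), had at most 6 counts in any library.

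*Dppa3* (chr6:122626410-122630272) encodes a protein of oocytes, early embryos and germ cells that protects methylated DNA from TET3. Its counts in M-Z+ embryos 1 to 6 were 18, 16, 2, 5, 4 and 12, and in M-Z- embryos 1 to 6 they were 5, 10, 2, 4, 3 and 0. The sums were 57 and 24 counts, and per total count M-Z+ embryos had 2.08 times as many (95% exact interval 1.27 to 3.51, counting error only). The embryos of each group differed from one another by more than that, and the exact permutation test of mean CPM gave p = 0.210.

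The 3 highest *Dppa3* counts among M-Z+ embryos, in replicates 1, 2 and 6, fell in the embryos that had 566, 1040 and 1991 counts on the Y-linked gene *Ddx3y*. M-Z+ embryos 3, 4 and 5 had 0, 2 and 0 counts on *Ddx3y*. In M-Z- embryos, replicates 1, 2 and 6 had 1131, 1131 and 1521 *Ddx3y* counts, and their *Dppa3* counts of 5, 10 and 0 spanned those of the other 3. *Xist* had 13469 to 51777 counts in M-Z+ embryos 4 and 5 and M-Z- embryos 3, 4 and 5, whereas M-Z+ embryo 3 had 2 counts on *Xist* beside its 0 on *Ddx3y*. The summed TPM of 12 germ cell markers was 27.4, 24.7 and 28.3 in M-Z+ embryos 1, 2 and 6 and 15.2 to 16.7 in the other 3. In M-Z- embryos 1, 2 and 6 it was 23.3, 17.7 and 21.2, and in M-Z- embryos 3, 4 and 5, without *Ddx3y* counts, it was 12.5, 13.8 and 21.6, so that these overlapped, and M-Z- embryo 6 had no count on *Dppa3*. All 12 markers had counts, 4 of them passed the filter and none was called, and the most abundant was *Tfap2c* with 4.17 TPM. Their part in the *Dppa3* counts was not tested.

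The levels of *Dnmt3a* and the *Tet* genes followed a property of the whole library. The gene length slope of a library is how far log2 CPM goes up per unit of log2 length in a straight line over its tested genes, and it ranged from 0.444 to 0.675 in M-Z+ embryos, with a median of 0.527, and from 0.540 to 0.677 in M-Z- embryos, with a median of 0.564. M-Z- embryo 6, M-Z+ embryo 6 and M-Z- embryo 5 had the steepest slopes, and M-Z+ embryo 4 the flattest. The group means of 0.544 ± 0.0771 and 0.595 ± 0.0607 did not differ beyond the spread of the embryos (SD, n = 6, exact permutation test, p = 0.193). The slope comes from the same libraries as the levels set against it. By its definition a steeper slope means higher levels of long genes relative to short ones. Members were not compared with genes of like length.

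Each member's log2 CPM was compared with the slope over the 12 embryos by permutation tests with 100000 resamples, adjusted over all 16026 tested genes. Of all tested genes, 40.1% had an adjusted p below 0.05 for Pearson r. *Tet3* had r = 0.965 (p = 2e-05, adjusted p = 0.00055) and rho = 0.902 (p = 0.00014, adjusted p = 0.0026), and 1.10% of tested genes had an r as high. The share with an r as high was 1.82% for *Tet1*, 2.67% for *Dnmt3a*, 6.93% for *Tet2* and 17.6% for *Dnmt1*. *Tet1* had r = 0.954 (p = 3e-05, adjusted p = 0.000579) and rho = 0.979 (p = 1e-05, the smallest the resamples can give, adjusted p = 0.00134). *Dnmt3a* had r = 0.945 (p = 8e-05, adjusted p = 0.000923) and rho = 0.832 (p = 0.00134, adjusted p = 0.00965). *Tet2* had r = 0.888 (p = 0.00017, adjusted p = 0.00146) and rho = 0.818 (p = 0.00187, adjusted p = 0.0120). For these 4 genes r was between 0.808 and 0.994 within each group of 6 embryos, and without the 2 embryos farthest from the median slope it was between 0.826 and 0.941.

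*Dnmt1* had r = 0.706 (permutation test, p = 0.0110, adjusted p = 0.0312) and rho = 0.545 (p = 0.0714, adjusted p = 0.150), with r = 0.645 without the 2 farthest embryos. *Uhrf1*, *Dnmt3b* and *Tdg* did not pass, with r of −0.32, 0.14 and 0.34 and rho of −0.42, 0.02 and 0.15 (p of r 0.302, 0.656 and 0.284, adjusted 0.422, 0.747 and 0.402, and p of rho 0.177, 0.954 and 0.636, adjusted 0.292, 0.972 and 0.737). *Tet2*, *Dnmt3a* and *Tet1* are the 3 members of greatest length on the FPKM scale, with 29974, 29217 and 28922 bases. By GENCODE exon length *Tet2* with 9203 bases is the fourth, after *Dnmt3a* with 16642, *Tet1* with 14710 and *Tet3* with 11086. On the FPKM scale, where *Tet3* has 19079 bases, genes of the longest 10th, from 13092 bases up, had a median log2 fold change of 0.12. Of these 1603 genes 78.7% were higher in M-Z- embryos. The shortest 10th had a median of −0.11.

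Once the slope entered the fit, the log2 fold change of *Tet1* went from 0.38 to 0.09 (95% interval −0.11 to 0.29), that of *Tet3* from 0.22 to 0.06 (−0.05 to 0.16) and that of *Dnmt3a* from 0.22 to 0.09 (−0.00081 to 0.19). *Tet2* went to −0.23 (−0.56 to 0.10) and *Tdg* to −0.31 (−0.76 to 0.14), while *Dnmt1* was at 0.08, *Uhrf1* at 0.11 and *Dnmt3b* at −0.12. edgeR called 0 members in that fit, with the lowest adjusted p at 0.511, and 0 of 8 had an unadjusted p below 0.05, where 9.83% of tested genes had. Other fits went the other way at the unadjusted p, although edgeR called 0 members in them too. With 2 surrogate variables 5 of 8 were below 0.05, *Dnmt1*, *Uhrf1*, *Dnmt3a*, *Tet1* and *Tet3*, all higher in M-Z- embryos, where 12.5% of tested genes were below it, and the lowest adjusted p was 0.229. The replicate number as a block put 4 of 8 below 0.05, *Dnmt1*, *Dnmt3a*, *Tet1* and *Tet3*, all higher in M-Z- embryos. In that fit 13.2% of tested genes were below it, and the lowest adjusted p was 0.329. Without M-Z+ embryo 6, *Dnmt3a*, *Tet1* and *Tet3* were below 0.05, again higher in M-Z- embryos, where 16.2% of tested genes were below it, and the lowest adjusted p was 0.263. Leaving out the 3 embryos of steepest slope, chosen after seeing the data, did not turn *Tet2*, which was at 0.19. *Tet1* was then at 0.35, *Tet3* at 0.18 and *Dnmt3a* at 0.15. Only *Tet3* was below 0.05 (edgeR unadjusted p = 0.0446), where 7.84% of tested genes were, and the lowest adjusted p was 0.637.

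**Figure D2:**
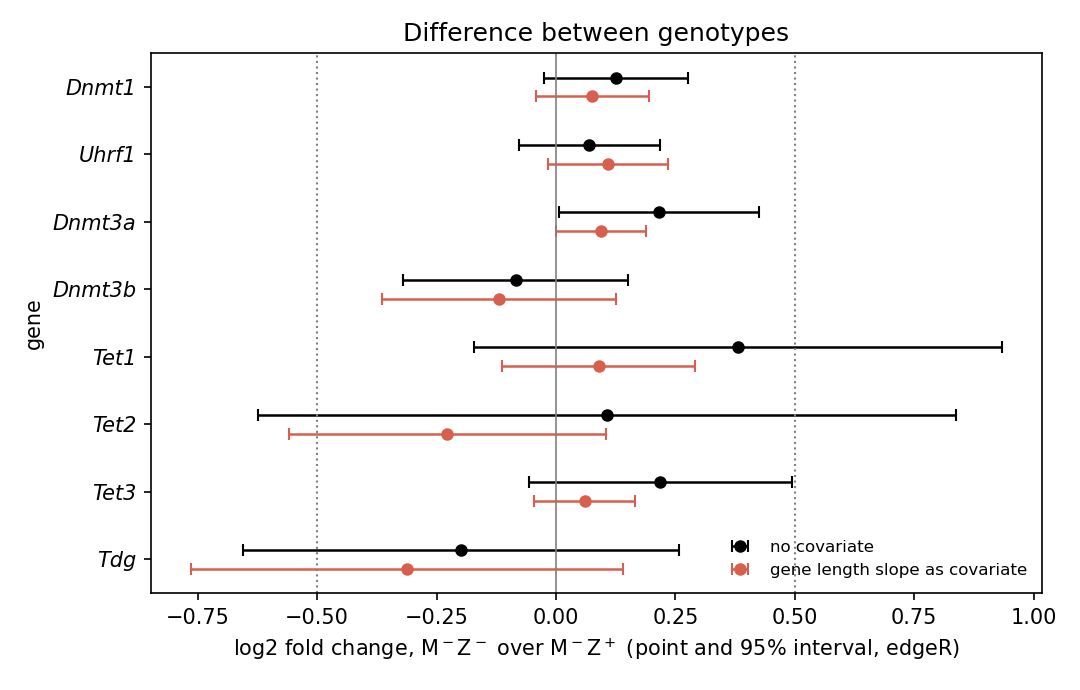
Log2 fold change of M-Z- over M-Z+ embryos for the 8 members tested (x axis; points with 95% intervals, n = 6 embryos each), without a covariate in black and in red from the fit that includes the gene length slope, and dotted lines at the fold limit of 0.5. The interval of *Dnmt3a* without a covariate runs from 0.01 to 0.43, all the other intervals include 0, and *Tet2* changes sign between the fits.

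**Figure D3:**
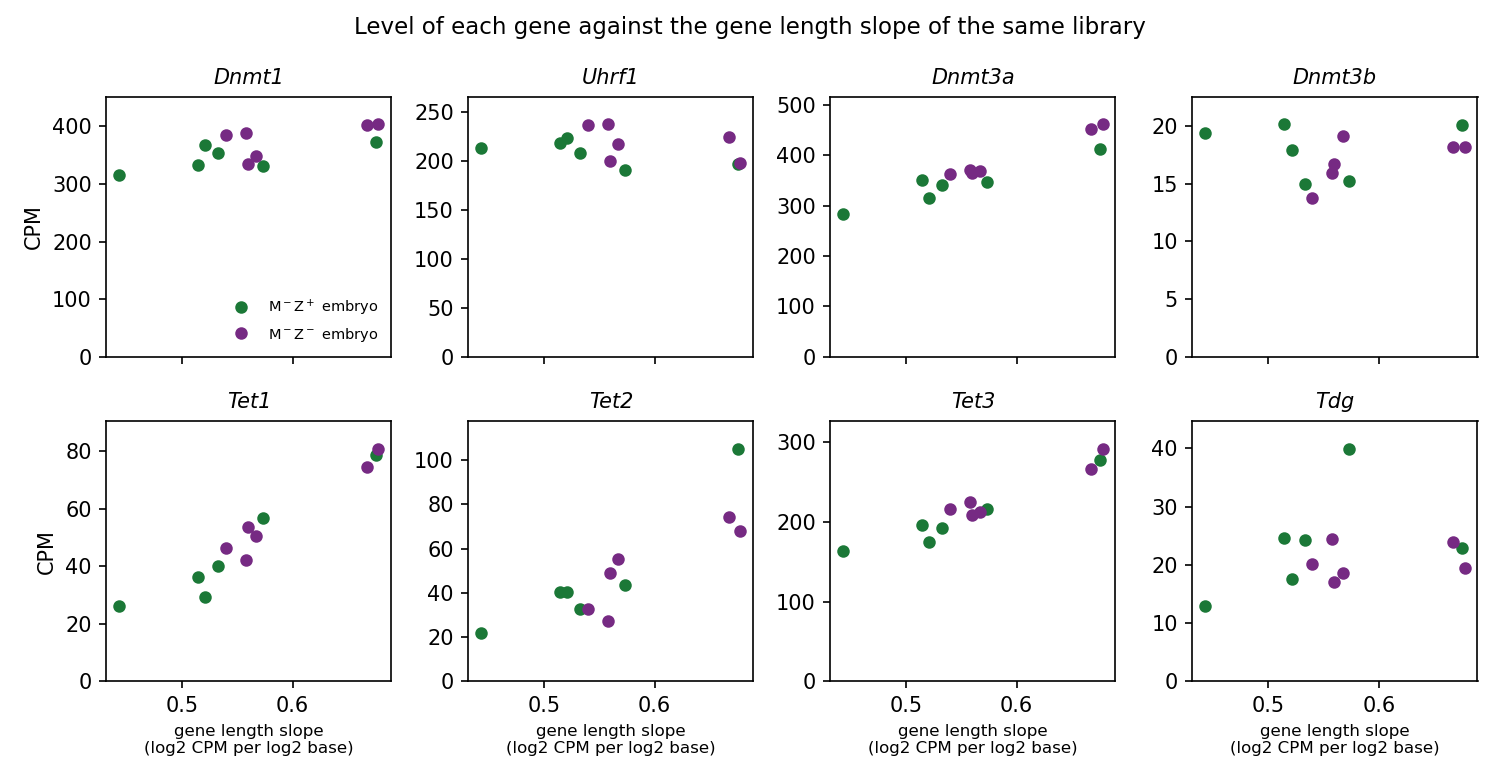
CPM of each member (y axis, from 0) against the gene length slope of the same library (x axis, log2 CPM per log2 base), with 1 point per embryo, M-Z+ in green and M-Z- in purple. *Dnmt3a*, *Tet1*, *Tet2* and *Tet3* are highest in the 3 libraries of steepest slope, 2 M-Z- and 1 M-Z+, whereas *Uhrf1*, *Dnmt3b* and *Tdg* show no such order.

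Among 3 pairs of members, *Tet2* and *Tet3* went together over the 12 embryos, with r = 0.788 (permutation test, p = 0.0023, 0.0069 adjusted over the 3 pairs) and rho = 0.636 (p = 0.0291, adjusted p = 0.0873). Without the 2 embryos farthest from the median of *Tet2*, r was 0.624, and with group means taken off it was 0.818. Both genes followed the gene length slope, and after a straight line on the slope was taken off each of them r was −0.56. *Dnmt1* and *Uhrf1* had r = 0.333 (permutation test, p = 0.289, adjusted p = 0.433) and rho = 0.350 (p = 0.263, adjusted p = 0.395), and r = 0.638 without the 2 embryos farthest from the median of *Dnmt1*. With group means taken off r was 0.19, and with the line on the slope taken off it was 0.84. *Dnmt3a* and *Dnmt3b* had r = 0.09 (permutation test, p = 0.786, adjusted p = 0.786) and rho = 0.17 (p = 0.590, adjusted p = 0.590), with r = 0.288 without the 2 farthest embryos and 0.276 with group means taken off. With the line on the slope taken off it was −0.15.

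The genes most like each member were named by Pearson r of log2 CPM over the 12 embryos with group means taken off, as a description. For *Tet1* they were *Xrn1*, *Aff4* and *Phf6*, with r of 0.997, 0.993 and 0.991. For *Tet3* they were *Trio*, *Nup153* and *Rnf214*, at 0.989, 0.989 and 0.988, and for *Tet2* *Slc7a6*, *Zswim6* and *Mkln1*, at 0.976, 0.966 and 0.964. *Dnmt3a* was most like *Mdn1*, *Prkdc* and *Ylpm1*, at 0.984, 0.981 and 0.978. *Dnmt1* was most like *Phf12*, *Focad* and *Sipa1l2*, at 0.967, 0.954 and 0.940, and *Uhrf1* most like *Ap2m1*, *Slc2a6* and *Rab29*, at 0.926, 0.902 and 0.897. *Dnmt3b* was most like *Lag3*, *Phyhipl* and *Paqr3*, at 0.932, 0.863 and 0.845, and *Tdg* most like *Cpsf2* and *D030028A08Rik*, at 0.893 and 0.881.

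Other genes were taken from 7 lists, for the pathways around these enzymes and for the cell cycle. Of their 68 tested genes edgeR called 0, with 3 at an unadjusted p below 0.05 where 6.7% of all tested genes were. DESeq2 called 1, *Bhmt*. In the edgeR fit that includes the gene length slope 0 were called and 7 of 68 had an unadjusted p below 0.05, where 9.83% of all tested genes had. The 7, chosen after their values were seen, were *2810417H13Rik*, *Ogt*, *Idh1*, *Smug1*, *Mbd3*, *Bhmt* and *Mcm4*, and *Ogt*, *Smug1* and *Bhmt* were lower in M-Z- embryos. Among 8 partners of maintenance methylation, 0 passed at an unadjusted p and the median log2 fold change was 0.03. The most abundant was *Pcna*, the sliding clamp of replication, with 203 TPM and a log2 fold change of −0.09 (95% interval −0.28 to 0.11), which was the lowest of the list. The highest was 0.22 (−0.19 to 0.63) for *Hells*, a chromatin remodeller needed for normal DNA methylation, and with the gene length slope in the fit it was 0.0054 for *Hells* and 0.0268 for *Pcna*.

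Of 7 genes of the de novo list, 6 were tested and 0 passed at an unadjusted p, with a median of 0.20. In the fit that includes the gene length slope this median was 0.03, and the values of *Nsd1* and *Setd2* went to −0.0065 and 0.04. *Nsd1*, which methylates histone H3 at lysine 36, was the most abundant with 96.9 TPM and a log2 fold change of 0.23. *Setd2*, another such enzyme, was the highest with 0.27 (95% interval −0.13 to 0.67), and *Ehmt2*, a methyltransferase of histone H3 lysine 9, the lowest with 0.00 (−0.20 to 0.20). The 1 gene not tested, *Gm14490* (*Dnmt3c*), had a mean of 1.67 counts.

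Of 7 tested partners of TET enzymes 0 passed at an unadjusted p, and the median log2 fold change was 0.09. *Idh1*, which makes the cosubstrate 2-oxoglutarate, was the most abundant with 167 TPM and a log2 fold change of 0.09. *Qser1*, whose product protects DNA methylation valleys from de novo methylation together with TET1, was the highest with 0.29 (95% interval −0.13 to 0.71), and *Cxxc5* the lowest with −0.14 (−0.34 to 0.06). With the slope in the fit *Qser1* and the median of the list were at 0.05. In that fit *Ogt*, which encodes O-GlcNAc transferase, a partner of TET proteins, turned from 0.16 to −0.27 and was the lowest (edgeR unadjusted p = 0.00908, adjusted p = 0.363), and *Idh1* was at 0.13 (edgeR unadjusted p = 0.0357, adjusted p = 0.471).

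In the base excision repair list, 13 of 14 genes were tested, 2 of them were lower in M-Z- embryos at an unadjusted p below 0.05, where 3.26% of all tested genes were, and the median was −0.05. *Parp1* was the most abundant with 145 TPM and a log2 fold change of 0.02. *Gadd45a*, a stress-induced gene linked to DNA demethylation, was the lowest with −0.34 (95% interval −0.63 to −0.04, edgeR unadjusted p = 0.0283, adjusted p = 0.744), and *Ung*, the uracil glycosylase, the highest with 0.15 (−0.17 to 0.46). The other of the 2, *Smug1*, was named after its values were seen, with −0.22 (−0.42 to −0.03, edgeR adjusted p = 0.744). With the slope in the fit *Gadd45a* was at −0.31 and no longer below 0.05 (edgeR unadjusted p = 0.0582), *Smug1* was at −0.26 (edgeR unadjusted p = 0.0153, adjusted p = 0.404), *Ung* at 0.28 and the median at −0.07.

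Of 7 tested genes in the list named methyl-CpG readers 0 passed at an unadjusted p, with a median of 0.01. The name is that of the list, and binding of methylated CpG by each gene was not tested. *Mbd3* was the most abundant with 118 TPM and a log2 fold change of 0.00, *Zbtb4* the highest with 0.39 (95% interval −0.92 to 1.71) and *Mbd2* the lowest with −0.06 (−0.21 to 0.09). *Mbd3* was at 0.13, *Zbtb4* at 0.23 and *Mbd2* at −0.0156 with the slope in the fit.

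In the methyl donor cycle, 1 of 13 tested genes passed at an unadjusted p, and the median log2 fold change was −0.05. That gene was *Bhmt*, which makes methionine from homocysteine with betaine, at 5.47 ± 1.81 CPM (SD over 6 embryos) in the M-Z+ group against 2.24 ± 0.791 CPM in the M-Z- group. Its log2 fold change was −1.29 (95% interval −1.87 to −0.71), with an adjusted p of 0.182 in edgeR and 0.00188 in DESeq2. The call of *Bhmt* depended on the fit. It was also called by edgeR with 2 surrogate variables (−1.19, adjusted p = 0.00924) and by edgeR with the replicate number as a block. Fits of edgeR without 1 embryo at a time did not call it, with adjusted p of 0.0522 to 0.427. *Shmt2* was the most abundant with 180.4 TPM and a log2 fold change of −0.05, and *Mtr*, methionine synthase, the highest with 0.29 (−0.04 to 0.62). With the slope in the fit the median of the list turned to 0.08, *Shmt2* was at 0.0772, *Mtr* at 0.13 and *Bhmt* at −1.03.

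The cell cycle list was added since *Dnmt1* and *Uhrf1* are transcribed in dividing cells, and 0 of 14 tested genes passed at an unadjusted p, with a median of 0.01. *Mki67* was the most abundant with 279 TPM and the highest with 0.16 (95% interval −0.32 to 0.63), and *Birc5* was the lowest with −0.09. With the slope in the fit *Mki67* turned to −0.14 and *Birc5* to 0.0540, and the median was 0.07. The summed TPM of the list was 1739 to 2041 in M-Z+ embryos and 1940 to 2113 in M-Z- embryos.

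Markers of tissues were present in these whole embryos. The most abundant were *Hbb-y* with 21211 TPM for erythroid cells, *Alb* with 2474 TPM for hepatocytes, *Tubb3* with 970.1 TPM for neurons, *Col2a1* with 558 TPM for cartilage and *Acta1* with 432 TPM for muscle. Of 7 placenta markers, *Tpbpa*, *Prl3d1* and *Prl2c2* had 0 counts in all 12 libraries, and *Plac1* was the most abundant with 2.82 TPM. None of the tested marker genes was called in edgeR. The summed TPM of erythroid markers was 16996 to 34341 in M-Z+ and 22627 to 38869 in M-Z- embryos (exact permutation test, p = 0.175), and that of hepatocyte markers 4248 to 7823 and 3157 to 7448 (p = 0.355). For neural markers the sums were 1096 to 1619 and 1134 to 1337 (exact permutation test, p = 0.0909), for cartilage 708 to 1221 and 921 to 1187 (p = 0.214), and for muscle 954 to 1134 and 988 to 1173 (p = 0.169).

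RefSeq promoter windows (GRCm38.p6, 250 bases before to 50 after a start) matched 9 of the 10 members in 16 windows, and the windows were read for CG, the dinucleotide that these enzymes methylate. The median over all 32851 windows was 7 CG. The *Tet2* window had 57 CG, and 99.8% of all windows had fewer. The 3 windows of *Dnmt3a* had 46, 47 and 18 CG, and the windows of *Dnmt3b*, *Tdg*, *Tet3* and *Tet1* had 30, 26, 22 and 17. In the 2 most abundant members the windows were unlike each other, with 2, 12 and 33 CG for *Dnmt1* and 12 and 33 for *Uhrf1*. The 3 windows of *Dnmt3l*, with counts near 0, had 6, 4 and 3 CG, all above the lowest *Dnmt1* window. The motif TTTNNCGC, which E2F factors can bind and which itself holds a CG, was searched on both strands and found in 3 of the 16 windows, 1 of *Dnmt1* and 2 of *Uhrf1*, and in 5.17% of all windows. A match is a description of letters only. The *Dnmt1* window that holds the motif, the *Tet2* window with most CG and the *Dnmt3l* window with most CG are shown 5′ to 3′ on the strand of the gene, with CG in capitals, for *Dnmt1* at chr9:20952574-20952873 on the minus strand, *Tet2* at chr3:133544341-133544640 on the minus strand and *Dnmt3l* at chr10:78042037-78042336 on the plus strand.
Dnmt1: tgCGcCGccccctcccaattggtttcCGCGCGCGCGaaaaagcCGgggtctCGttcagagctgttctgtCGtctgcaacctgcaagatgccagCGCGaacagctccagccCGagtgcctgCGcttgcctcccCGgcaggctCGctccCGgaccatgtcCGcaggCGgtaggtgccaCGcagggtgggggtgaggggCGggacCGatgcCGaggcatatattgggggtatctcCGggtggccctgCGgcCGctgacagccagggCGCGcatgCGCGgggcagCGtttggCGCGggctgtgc
Tet2: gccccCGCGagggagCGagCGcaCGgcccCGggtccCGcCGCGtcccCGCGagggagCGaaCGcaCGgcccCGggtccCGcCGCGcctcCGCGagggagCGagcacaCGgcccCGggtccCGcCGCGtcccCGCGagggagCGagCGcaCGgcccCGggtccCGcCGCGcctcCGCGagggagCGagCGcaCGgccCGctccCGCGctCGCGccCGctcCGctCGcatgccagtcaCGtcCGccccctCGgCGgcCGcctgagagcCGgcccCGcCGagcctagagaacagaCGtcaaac
Dnmt3l: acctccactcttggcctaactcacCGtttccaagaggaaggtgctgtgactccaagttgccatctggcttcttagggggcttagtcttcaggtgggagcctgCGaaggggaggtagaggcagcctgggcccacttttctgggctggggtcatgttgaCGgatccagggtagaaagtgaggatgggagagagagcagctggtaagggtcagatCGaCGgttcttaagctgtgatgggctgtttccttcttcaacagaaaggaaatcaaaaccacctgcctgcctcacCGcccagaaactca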

How the data were processed

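RNA-seq was analysed for 6 M-Z+ and 6 M-Z- embryos. Bisulfite sequencing of 12 other samples was not used here. Raw counts per gene were deposited by the authors, with FPKM values that 1 length per gene gives back from the counts within 0.1% for 238855 values. Per the labels, HISAT2 2.0.4 and mm10 are among the tools and builds, with no role given. Which program counted the reads, with which strand setting and annotation, is not given for this table in the sources used here. The study's methods name STAR and featureCounts with a strand option on mm9 genes for its RNA-seq, but the labels of these libraries name HISAT2 and mm10 and the table has GRCm38 positions, so those settings were not taken for it. Without a known strand setting, reads of overlapping genes on opposite strands cannot be told apart.

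Counts were tested in R 4.3.3 with edgeR 4.0.16 (TMM, filterByExpr, glmQLFit, glmQLFTest, Benjamini-Hochberg over 16026 genes). The SE is the log2 fold change divided by the square root of F. Alternatives were DESeq2 1.42.0, other filters, the replicate number as a block, the gene length slope, 2 surrogate variables (sva 3.50.0) and embryos left out in turn. The log2 CPM values used a prior count of 1. TPM rescaled the deposited FPKM. GENCODE vM1 lengths were matched by gene identifier for 15247 tested genes, and none of its mm9 coordinates was used. Python 3.11.15 was used for the rest. The fits and permutation tests were tested on simulated data.

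The members and lists were chosen with earlier results of these data known. The genes named were *Zfp57*, the members, in each list the called, the most abundant, the highest and the lowest gene, the 3 genes most like each member, and the most abundant marker. Of the genes most like a member, 1 is not reported here. Sex-linked genes, overlapping genes and *Tdg-ps* were named after their values were seen.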

Additional observations from a re-analysis of the deposited data

Results flagged for a closer look

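*Tet2* stood apart in 1 embryo. M-Z+ embryo 6 had 105.2 CPM, where the other M-Z+ embryos had 22.0 to 43.7 CPM, and the gap to the nearest embryo was 0.739 of the range of the group. This was 1 of 66 groups of 6 values examined, for the members, *Zfp57*, the genes named from the partner lists and the 3 family shares. Chance gives about 1 in 20 groups, or 3.3 of 66, so that 1 such group is no more than chance gives. Markers, sex-linked genes, *Tdg-ps* and overlapping genes were not examined in this way. The library of that embryo had a gene length slope of 0.675, the second highest of the 12, and *Tet1* and *Tet3* were also highest in it among M-Z+ embryos, with 78.7 and 277 CPM. Its part in the result was not tested. Without this embryo the log2 fold change of *Tet2* was 0.51 in place of 0.11, and it was not called in either case.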

How the results depend on the processing

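Members called stayed at 0 in each alternative run, DESeq2, the unadjusted p with the fold limit and the fits without 1 embryo included. All genes called went from 13 to 37 with DESeq2, 23 with the gene length slope, 41 with surrogate variables and 247 at the unadjusted p with the same fold limit, and were 11 to 15 without 1 embryo. Pathway genes called went from 0 to 1 with DESeq2, with surrogate variables and at the unadjusted p, and this was *Bhmt* (log2 fold change −1.29 and −1.19, adjusted p 0.00188 and 0.00924 in the first 2).

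The gene length slope turned *Tet2* to −0.23, *Pcna* to 0.0268, *Nsd1* to −0.00648, *Shmt2* to 0.0772, *Mki67* to −0.14 and *Birc5* to 0.0540. Surrogate variables turned *Tet2* to −0.0642 and *Shmt2* to 0.0387. No filter turned *Ehmt2* to −0.00347 and *Mbd3* to −0.000255, and a mean of at least 50 counts turned them to −0.00685 and −0.00366. Without the 3 embryos of steepest slope, chosen after seeing the data, *Parp1* was −0.00895, *Zbtb4* −0.41, and the *Dnmt3a* share difference 2.27 points (exact permutation p = 0.159). The cause was not tested. Without 1 embryo at a time, log2 fold changes were 0.0958 to 0.15 for *Dnmt1*, 0.0351 to 0.0880 for *Uhrf1*, 0.16 to 0.27 for *Dnmt3a*, −0.14 to −0.0307 for *Dnmt3b*, 0.25 to 0.62 for *Tet1*, 0.14 to 0.32 for *Tet3*, −0.0473 to 0.51 for *Tet2*, −0.33 to 0.00312 for *Tdg*, −0.24 to 0.00418 for *Zfp57*, −0.0581 to 0.0404 for *Ehmt2*, −0.00403 to 0.0435 for *Parp1*, −0.0615 to 0.0551 for *Mbd3* and −0.11 to 0.00378 for *Shmt2*. Other values that moved by over 1.5 times were those of *Mki67* (0.0349 to 0.32), *Zbtb4* (0.16 to 0.76), *Ung* (0.0431 to 0.23), *Hells* (0.12 to 0.32), *Nsd1* (0.12 to 0.36), *Setd2* (0.16 to 0.42), *Qser1* (0.18 to 0.45), *Cxxc5* (−0.20 to −0.0919), *Mbd2* (−0.10 to −0.0410), *Pcna* (−0.15 to −0.0309) and *Birc5* (−0.16 to −0.0307). The *Dnmt3a* share difference was 1.77 to 2.91 points, and its exact p was above 0.05 without M-Z+ embryo 1, 4 or 5 or M-Z- embryo 3, 4, 5 or 6. The *Tet3* share difference was −2.72 to 0.0739 points, and the *Dnmt1* share difference −0.965 to −0.169 points. Pearson r was −0.016 to 0.319 for *Dnmt3a* with *Dnmt3b* and 0.219 to 0.561 for *Dnmt1* with *Uhrf1*. The level of *Ddx3y* as a covariate, added after seeing the data, reversed none of these.

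Same-numbered embryos correlated at 0.0352 to 0.632 in their deviations from group means. The labels do not say what a number marks, and since 1 of the 6 correlations, 0.0352 for number 2, was below 0.1, the numbers were not taken as pairs, although the other 5 were above it. By this measure 5 of 12 embryos correlated best with their own number, where chance gives 2. For each of the 6 numbers *Ddx3y* had at least 100 counts in both embryos or in neither. *Dnmt1* and *Dnmt3a* were higher in the M-Z- embryo of all 6 numbers, as were 4.46% of tested genes, while *Uhrf1*, *Tet1* and *Tet3* were higher in 5, *Tet2* in 4 and *Dnmt3b* and *Tdg* in 3. With the replicate block, 21 genes were called, 0 members and 1 pathway gene, *Bhmt* (−1.30, adjusted p 0.00315), and the *Dnmt3a* share difference of 2.46 points had an exact sign-flip p of 0.0938. With it 4 of 8 members had an unadjusted p below 0.05, *Dnmt1* (0.12, p 0.0480), *Dnmt3a* (0.22, p 0.0146), *Tet1* (0.44, p 0.0375) and *Tet3* (0.23, p 0.0258), where 13.2% of tested genes had, and the lowest adjusted p was 0.329. The block changed no other call among members and shares. Depth limits *Dnmt3l* and *Dppa3* most, with at most 5 and 18 counts per library.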
